A study of Homo sapiens with 12 samples.

Results

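Cells transcribe their nuclear genes with RNA polymerases I, II and III, and the genes described here encode the subunits of these enzymes together with 2 factors of polymerase I. They were taken from the deposited gene table by symbol: every gene named POLR1, POLR2 or POLR3 with a subunit letter, and CD3EAP, ZNRD1, TWISTNB, UBTF and RRN3. This gave 36 of 25369 genes. They comprised 6 subunits of Pol I alone, 7 of Pol II alone, 10 of Pol III alone, 7 shared subunits, the 2 Pol I factors UBTF and RRN3, and 4 genes that are associated with Pol II or are copies of one of its subunits. All 36 passed the filter on low counts in each of the 3 cell lines.

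Poly(A)+ RNA was sequenced from 3 human cell lines, RKO, A549 and H460, with 2 replicates in each of 6 groups. RKO is a colon carcinoma line, and A549 and H460 are lung carcinoma lines. Each line was kept in normoxia or exposed to hypoxia (1% O2) for 24 h, with no genetic change or drug in any group. RKO and A549 cells were grown in DMEM and H460 cells in RPMI, so the effects of line and medium on H460 cannot be told apart, and each line stands for itself and not for its tumour type.

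Pol I makes the large ribosomal RNA precursor in the nucleolus, Pol II makes messenger RNAs, and Pol III makes tRNAs, 5S ribosomal RNA and other small RNAs. Each enzyme has a pair of large subunits that form the catalytic centre, a stalk, and small subunits of which some are common to all 3 enzymes. The levels given here are those of the mRNAs for these proteins, and neither the proteins nor the activity of the polymerases was measured.

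Libraries held 27350424 to 41757584 counted reads, of which the 36 genes took 0.119% to 0.3%. CA9, VEGFA, PDK1 and SLC2A1, 4 widely used hypoxia targets, were called higher in all 3 lines, with CA9 log2 fold changes of 4.45 ± 0.31 (SE) in RKO, 5.65 ± 0.37 in A549 and 6.82 ± 0.28 in H460. Of 5 lung epithelial markers, 1 exceeded 1 CPM in every A549 library and 0 did in H460, and of 4 intestinal markers 1 did in RKO (CDX2) and 1 in A549 (CDH17), so the lines carried few of the defining markers of their tissues. Some marker sums moved with hypoxia. The summed lung markers went from 0.458 to 0.648 CPM over the H460 normoxia replicates to 3.79 to 3.83 in hypoxia. Of 4 general epithelial markers, 3 exceeded 1 CPM in every RKO library, 4 in A549 and 2 in H460, and their sum went from 202 to 214 CPM to 109 to 112 in RKO and from 1120 to 1190 to 907 to 926 in H460. Of 4 genes of other cell types, the endothelial PECAM1 and the leukocyte gene PTPRC were at or near 0, while the sum of all 4, most of it from the mesenchymal gene VIM, went from 975 to 1060 CPM in normoxia to 4070 to 4350 in hypoxia in H460, from 1900 to 2260 to 3420 to 4640 in A549 and from 11.4 to 12.1 to 12.7 to 14.7 in RKO. The part of these shifts in the results was not tested. Replicates of a group were independent biological duplicates, and 2 of them give a coarse estimate of the spread. In these bulk samples fewer cells and less RNA per cell cannot be told apart, and every level is relative to the other mRNAs of its library.

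A gene was called when its edgeR quasi-likelihood test, adjusted over all genes tested, gave a p under 0.1 and its fold change was over 1.5. The values by library are CPM (counts relative to the TMM-scaled library size), which compare 1 gene between libraries, and RPKM, which is per gene length, is used wherever genes are compared. In RKO, 19 of the 36 genes were lower in hypoxia, against 15.1% of all tested genes, and 3 were higher, against 18.8%. In H460, 19 were lower, against 27.3% of all tested genes, and 4 were higher, against 24.6%. In A549, 0 were called lower and 0 higher, where the background was 0.456% lower and 2.22% higher. Of the A549 values, 33 of 36 were negative, against 51.2% of all tested genes, and 10 genes had an unadjusted edgeR p under 0.05, against 16.6% of all. DESeq2 called 2 genes lower in A549, POLR1A and POLR1B, against 1.85% of all genes.

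**Figure D1:**
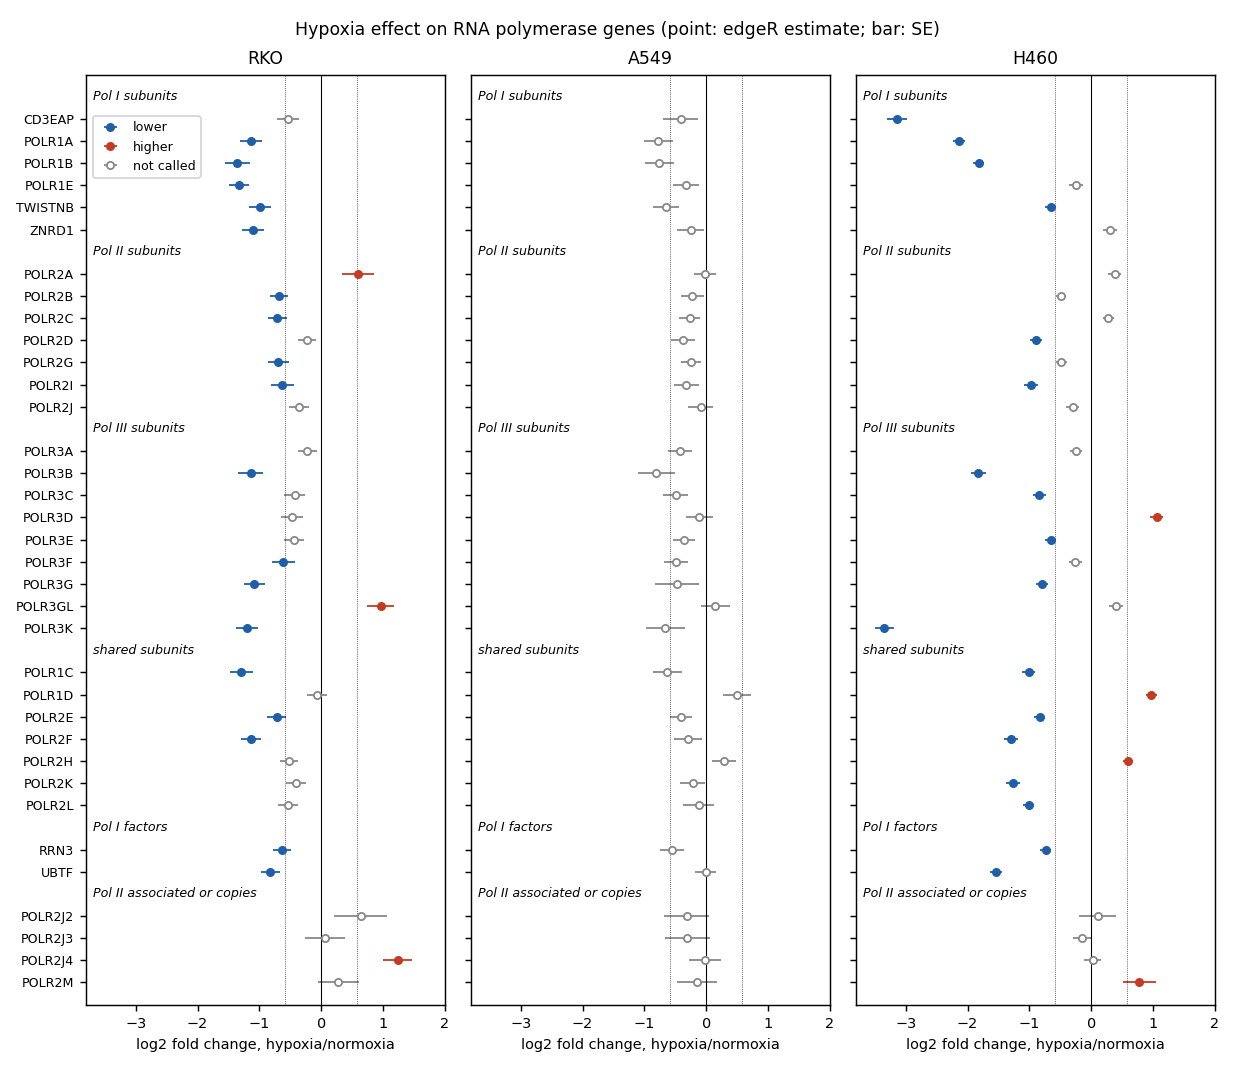
Log2 fold change of hypoxia over normoxia (horizontal axis) for 35 of the 36 genes, grouped by enzyme, in RKO, A549 and H460. Points are edgeR estimates, bars are standard errors, filled points are called genes (blue lower, red higher), and dotted lines mark a 1.5-fold change. In H460, POLR3K and CD3EAP lie beyond a log2 change of -3, and no point is filled in A549.

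Over each class, the median log2 fold change was lowest for Pol I subunits in every line: -1.12 in RKO, -0.53 in A549 and -1.24 in H460. Pol II subunits had medians of -0.63, -0.25 and -0.48 in the same order, Pol III subunits -0.54, -0.48 and -0.73, and the shared subunits -0.54, -0.21 and -1.01. Medians over all tested genes were 0.0073, -0.0099 and -0.035. These class medians rest on 6 to 10 genes each and are descriptions without a test. In A549 the Pol I and Pol III medians lay close together, beside SDs between replicates of 0.261 and 0.148. With scaling by library size alone the median gene moved by -0.35 in H460, 0.083 in RKO and -0.091 in A549, so changes are relative to the TMM reference. Under that scaling H460 had 25 of the 36 genes lower and 2 higher, against 40.9% and 14.7% of all genes. The added calls were POLR1E (log2 -0.60), POLR2B (-0.84), POLR2G (-0.83), POLR2J (-0.65), POLR3A (-0.60) and POLR3F (-0.61).

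Calls were shared by RKO and H460 for 13 of the 36 genes, all lower, where 9.21% of genes tested in each line were called lower in both. Among them were POLR1A, POLR1B, TWISTNB, UBTF and RRN3 of Pol I, the shared POLR1C, POLR2E and POLR2F, POLR2I of Pol II, and POLR3B, POLR3G and POLR3K of Pol III. No gene was called in opposite directions in different lines. With A549 included, 0 genes were called lower in all 3 lines, against 0.109% of all genes. In a joint fit of the 12 libraries, the mean effect over lines was called lower for 16 of the 36 genes, against 11.5% of all genes, and higher for 0, against 14.8%. POLR3K had the lowest mean effect, -1.71 ± 0.15. POLR2J, POLR2J2, POLR2J3 and POLR3A were called in no line with TMM scaling.

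Promoter sequences are shown for 3 of these genes: CD3EAP and POLR3K, which had the lowest H460 fold changes, and POLR3A, the only one of the 10 listed Pol III subunits called in no line with TMM scaling. Each window runs from 250 bases before to 50 bases after a RefSeq start site (GRCh38.p14), 5′ to 3′ on the gene's strand. Capitals mark CACGTG, the E-box bound by MYC and related factors, and ACGTG or GCGTG, the core letters of sites bound by hypoxia-inducible factors. Both strands were searched, and each CACGTG also contains ACGTG.
CD3EAP (chr19:45406394-45406693, plus strand): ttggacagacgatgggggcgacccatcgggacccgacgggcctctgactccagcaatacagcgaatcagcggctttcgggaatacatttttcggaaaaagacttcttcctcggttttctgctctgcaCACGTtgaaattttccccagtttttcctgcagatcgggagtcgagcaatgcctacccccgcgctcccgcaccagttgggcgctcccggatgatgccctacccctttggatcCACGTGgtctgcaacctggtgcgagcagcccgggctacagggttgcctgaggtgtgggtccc
POLR3K (chr16:53559-53858, minus strand): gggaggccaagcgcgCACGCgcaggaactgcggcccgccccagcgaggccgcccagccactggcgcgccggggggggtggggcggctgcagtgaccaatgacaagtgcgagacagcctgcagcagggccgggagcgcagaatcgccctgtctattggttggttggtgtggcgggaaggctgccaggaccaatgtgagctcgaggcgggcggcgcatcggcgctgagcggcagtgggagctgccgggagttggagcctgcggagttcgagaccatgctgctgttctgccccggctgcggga
POLR3A (chr10:78029466-78029765, minus strand): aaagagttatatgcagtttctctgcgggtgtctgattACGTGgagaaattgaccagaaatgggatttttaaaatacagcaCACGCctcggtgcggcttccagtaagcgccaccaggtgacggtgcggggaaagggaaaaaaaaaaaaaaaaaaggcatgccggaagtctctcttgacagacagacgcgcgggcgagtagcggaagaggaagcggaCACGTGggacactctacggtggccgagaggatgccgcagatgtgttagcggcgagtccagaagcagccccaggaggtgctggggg
RefSeq windows were matched for 26 of the 36 genes, with 34 windows in all. The E-box letters stood in 4 of the 34 windows (11.8%), those of CD3EAP, POLR3A, POLR3C and POLR3E, against 7.26% of 35116 windows of all genes. Letters of ACGTG stood in 26.5% of the members' windows against 21.4% of all, and GCGTG in 70.6% against 36.5%. Windows of the same gene can overlap and hold the same site, as for RRN3 and POLR2F, and base composition was not compared. In CD3EAP the E-box starts 12 bases before the start site and in POLR3A 35 bases before it, and the POLR3K window holds a single match, of GCGTG, starting 235 bases before. The windows of POLR3A and POLR3E and the POLR3C window at chr1:145823950-145824249 each held all 3 letter sets. The other POLR3C window held no CACGTG. In H460 POLR3C and POLR3E were called lower and POLR3A was not, with TMM scaling. A match of letters is a description of the sequence and not of binding.

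Pol I subunits were called lower in 5 of 6 cases in RKO (all but CD3EAP), where the background was 15.1%, and in 4 of 6 in H460 (all but POLR1E and ZNRD1), where it was 27.3%. POLR1A, the largest subunit and part of the catalytic centre (chr2:86253450-86333278, GRCh37, minus strand), read 148 and 161 CPM in RKO normoxia and 58.4 and 82.4 in hypoxia. In H460 it read 83.6 and 86.8 CPM in normoxia and 18.3 and 20.5 in hypoxia. The conditions did not overlap in either line, and the gene was 2.19-fold lower in RKO (log2 -1.13 ± 0.18, adjusted p = 0.00104) and 4.39-fold lower in H460 (-2.14 ± 0.10, adjusted p = 6.39e-09). A549 read 109 and 96.4 CPM in normoxia against 74.3 and 45.5 in hypoxia, again without overlap but short of the threshold (log2 -0.78 ± 0.23, adjusted p = 0.167).

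POLR1B, its partner in the catalytic centre (chr2:113299491-113334729), was lower in the same lines. It read 177 and 163 CPM in RKO normoxia and 51.6 and 81.0 in hypoxia, and 72.3 and 68.4 against 19.75 and 20.04 in H460. Conditions were apart in both lines, at 2.56-fold lower in RKO (adjusted p = 0.000745) and 3.53-fold lower in H460 (adjusted p = 1.42e-08). Per gene length, the POLR1A to POLR1B ratio was 0.694 and 0.821 in RKO normoxia and 0.939 and 0.843 in hypoxia. It was 0.959 and 1.05 against 0.768 and 0.846 in H460. In A549 the ratio overlapped, at 1.97 and 1.56 in normoxia and 1.79 and 1.65 in hypoxia.

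CD3EAP and POLR1E encode the dimer that joins the Pol I core and helps initiation. Both passed the test of a difference between lines given further on. CD3EAP (chr19:45909466-45914024, plus strand) fell from 18.0 and 16.3 CPM to 1.88 and 2.01 CPM in H460, 8.80-fold lower (log2 -3.14 ± 0.16, adjusted p = 1.39e-08). These values rest on 551 and 604 counted reads in normoxia and 49 and 63 in hypoxia. In RKO it read 23.5 and 23.7 CPM against 16.6 and 16.0, a 1.45-fold difference under the fold minimum (adjusted p = 0.0385), and in A549 the conditions overlapped.
POLR1E went from 93.4 and 92.5 CPM to 33.8 and 40.1 in RKO (log2 -1.33 ± 0.16, adjusted p = 0.000252), but from 29.9 and 29.8 to 27.9 and 22.5 in H460 (log2 -0.25 ± 0.12, adjusted p = 0.0724, not called, and -0.60 and called lower under scaling by library size).

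ZNRD1, a small subunit that takes part in RNA cleavage, read 34.4 and 31.5 CPM in RKO normoxia and 15.4 in both hypoxia replicates (log2 -1.10 ± 0.18, adjusted p = 0.00106). In H460 it read 19.03 and 18.12 CPM in normoxia and 24.0 and 21.8 in hypoxia (log2 0.30 ± 0.11, not called, and -0.052 under scaling by library size). Its deposited entry lies on an alternative haplotype of chromosome 6 with a length of 7025 bases, so its level per length is uncertain. TWISTNB, part of the stalk, was 1.99-fold lower in RKO and 1.58-fold lower in H460.

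Both Pol I factors fell in RKO and H460. UBTF, which binds the ribosomal RNA gene promoter and the body of the gene (chr17:42282400-42298994), read 119 and 112 CPM in H460 normoxia and 36.9 and 42.8 in hypoxia (log2 -1.54 ± 0.10, adjusted p = 7.67e-08). RKO went from 144 and 149 CPM to 74.97 and 89.75 (log2 -0.83 ± 0.15, adjusted p = 0.00226), while in A549 the values overlapped, at 141 and 134 against 145 and 129 CPM. RRN3, which links Pol I to its promoter factors, was 1.55-fold lower in RKO and 1.67-fold lower in H460. The human genome holds RRN3 pseudogene copies, and reads that fit several places could have been lost from it. The RRN3 call in RKO sat close to the fold minimum. It was lost without hypoxia replicate 1 (log2 -0.58), in the joint fit (-0.57) and under scaling by library size (-0.55).

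Pol III subunits were called lower in 5 of 10 cases in RKO and in 6 of 10 in H460, against 15.1% and 27.3% of all genes. POLR3K, a small subunit needed for RNA cleavage and termination (chr16:96978-103632, minus strand), had the lowest H460 fold change of the 36 genes. Its level was 30.1 and 26.5 CPM in H460 normoxia and 2.49 and 3.03 in hypoxia, from 919, 982, 65 and 95 reads. This was 10.2-fold lower (log2 -3.35 ± 0.15, adjusted p = 5.8e-09), with each hypoxia replicate far below each normoxia replicate. In RKO it read 47.1 and 39.6 CPM against 19.2 and 18.5, or 2.30-fold lower (adjusted p = 0.000648). A549 replicates overlapped, at 31.1 and 20.1 CPM in normoxia and 20.7 and 11.7 in hypoxia.

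Of the catalytic pair of Pol III, POLR3B was called lower in RKO and H460 and POLR3A in no line with TMM scaling. POLR3B fell from 19.8 and 18.9 CPM to 8.23 and 9.24 in RKO and from 24.9 and 25.9 to 6.78 and 7.52 in H460 (log2 -1.83 ± 0.12, adjusted p = 1.17e-07). POLR3A, the largest subunit, read 127 and 112 CPM against 105 and 100 in RKO (log2 -0.22 ± 0.15, adjusted p = 0.261) and 60.7 and 66.3 against 55.5 and 51.6 in H460 (log2 -0.25 ± 0.09, adjusted p = 0.0296, under the fold minimum). Under scaling by library size the H460 value of POLR3A was -0.60 (adjusted p = 0.000159) and it was called lower. The POLR3A to POLR3B ratio of RPKM was 1.62 and 1.70 in H460 normoxia and 5.45 and 4.57 in hypoxia, and 4.28 and 3.95 against 8.47 and 7.21 in RKO. In A549 it was 2.98 and 2.46 in normoxia and 3.14 and 4.22 in hypoxia.

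POLR3D and POLR3E form a dimer that takes part in initiation and termination. POLR3D was the only Pol III subunit called higher in H460, from 26.5 and 23.8 CPM to 55.8 and 49.2 (log2 1.06 ± 0.10, adjusted p = 2.31e-06), while RKO read 44.5 and 35.9 against 31.5 and 26.4 (log2 -0.47 ± 0.18, under the fold minimum). POLR3E was 1.57-fold lower in H460 (adjusted p = 3.03e-05) and 1.35-fold lower in RKO, under the fold minimum. Of the initiation trimer, POLR3C was called lower in H460 (log2 -0.84 ± 0.10) and POLR3F in RKO (log2 -0.61 ± 0.19). The POLR3F call was lost without RKO hypoxia replicate 1 (log2 -0.43) and without RKO normoxia replicate 2 (-0.57). It was also lost in the joint fit (-0.55) and under scaling by library size (-0.52).

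**Figure D2:**
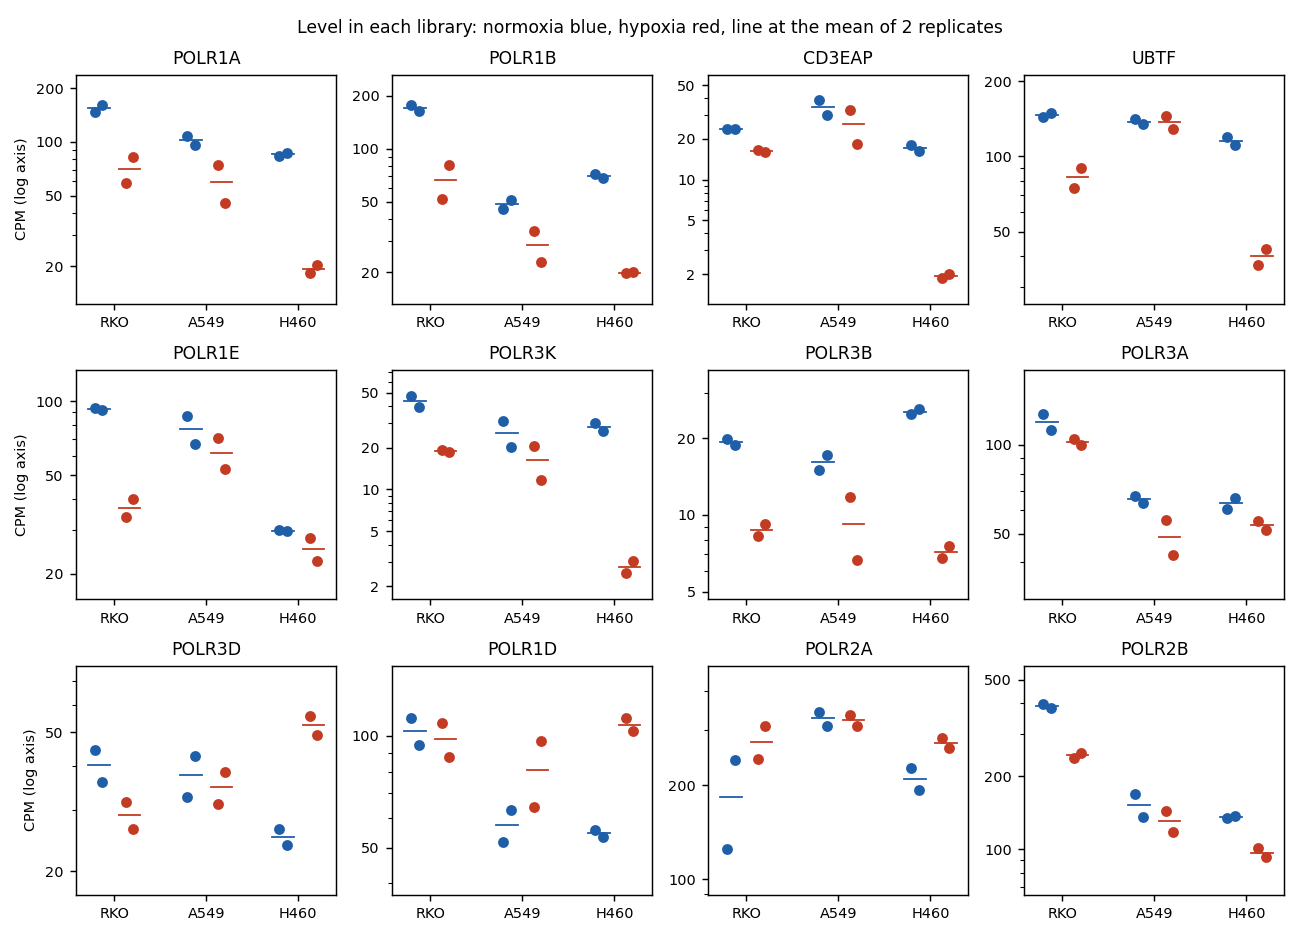
Level in every library of 12 of the genes, as CPM on a log axis, for RKO, A549 and H460. Blue points are normoxia replicates, red points hypoxia replicates, and lines their means. CD3EAP and POLR3K show the widest gaps in H460, POLR3D and POLR1D lie higher in H460 hypoxia, and POLR2A differs between the RKO normoxia replicates.

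POLR3G and POLR3GL are alternative versions of the third member of that trimer, encoded by separate genes. POLR3G is known for its high level in stem cells and tumours, and POLR3GL for its wide expression in adult tissues. POLR3G fell from 86.1 and 74.8 CPM to 33.7 and 42.3 in RKO (log2 -1.08 ± 0.17, adjusted p = 0.00102) and from 44.7 and 46.6 to 26.5 and 26.1 in H460 (log2 -0.80 ± 0.09, adjusted p = 9.57e-06). POLR3GL rose in RKO from 27.4 and 17.8 CPM to 48.5 and 39.7 (log2 0.96 ± 0.22, adjusted p = 0.00626). In H460 it read 22.9 and 19.1 against 26.6 and 28.5 CPM, a 1.32-fold difference under the fold minimum (adjusted p = 0.00861). Under scaling by library size the H460 log2 value of POLR3GL was 0.046 (adjusted p = 0.743). Its H460 RPKM overlapped, at 21.97 and 18.72 in normoxia and 19.78 and 22.15 in hypoxia.

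Per gene length, the POLR3G to POLR3GL ratio was 1.11 and 1.49 in RKO normoxia and 0.246 and 0.378 in hypoxia, so that POLR3G was the higher of the pair in normoxia and the lower in hypoxia. In H460 the ratio was 0.693 and 0.865 in normoxia and 0.353 and 0.325 in hypoxia. In A549 it was 0.716 and 0.39 in normoxia and 0.547 and 0.19 in hypoxia, with overlap. The log2 ratio changed by -2.08 (RKO), -0.71 (A549) and -1.19 (H460). The A549 value was 0.051 without hypoxia replicate 2, so that library set its direction. A549 POLR3G differed between hypoxia replicates, at 24.2 and 10.7 CPM.

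**Figure D3:**
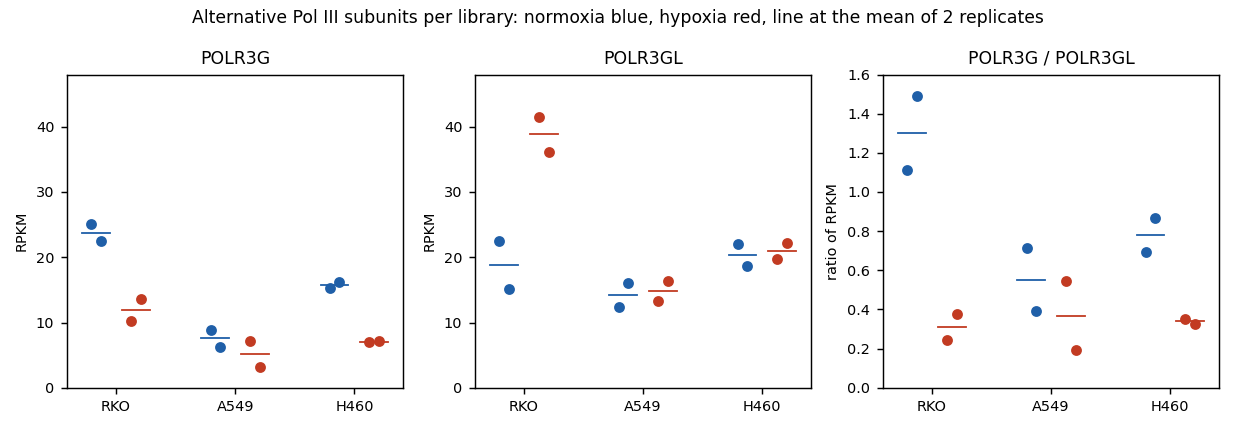
POLR3G, POLR3GL (RPKM) and the ratio of their RPKM in each library of RKO, A549 and H460. Blue points are normoxia replicates, red points hypoxia replicates, and lines their means. The ratio lies between 0.246 and 0.378 in RKO hypoxia and between 1.11 and 1.49 in RKO normoxia.

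Of the 7 shared subunits, 5 were called lower in H460, against 27.3% of all genes. The 2 called higher made a share of 28.6%, close to the 24.6% of all genes. POLR1C and POLR1D form the assembly platform common to Pol I and Pol III. POLR1C was lower in both RKO (log2 -1.29 ± 0.18, adjusted p = 0.000548) and H460 (log2 -1.01 ± 0.11, adjusted p = 5.73e-06). POLR1D rose in H460 from 55.7 and 53.5 CPM to 112 and 103 (log2 0.97 ± 0.09, adjusted p = 1.24e-06), and in RKO its conditions overlapped, at 112 and 94.8 against 109 and 87.9 CPM. In A549 POLR1D read 51.7 and 63.2 CPM against 64.5 and 97.2, without overlap but not called (log2 0.49 ± 0.23, adjusted p = 0.315).

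POLR2E, POLR2F, POLR2H, POLR2K and POLR2L belong to all 3 enzymes. POLR2F was 2.19-fold lower in RKO and 2.45-fold lower in H460, and POLR2E 1.65-fold and 1.79-fold lower. POLR2K fell from 34.9 and 31.3 CPM to 13.1 and 14.3 in H460 (log2 -1.27 ± 0.11, adjusted p = 1e-06), and POLR2L from 61.6 and 58.2 to 30.1 and 29.3 (log2 -1.01 ± 0.09, adjusted p = 1.23e-06). In RKO these last genes had log2 values of -0.41 ± 0.16 and -0.54 ± 0.16, both under the fold minimum.
POLR2H was the exception, at 50.9 and 50.2 CPM in H460 normoxia and 78.1 and 74.5 in hypoxia (log2 0.59 ± 0.09, adjusted p = 6.45e-05). That call sat at the fold minimum and was lost without H460 normoxia replicate 1, normoxia replicate 2 or hypoxia replicate 1, with log2 values of 0.56, 0.54 and 0.57, and under scaling by library size (0.24).

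Pol II subunits gave 4 lower and 1 higher of 7 in RKO, against 15.1% and 18.8% of all genes. In H460 they gave 2 lower and 0 higher with TMM scaling, and the share lower, 28.6%, was close to the 27.3% of all genes. Under scaling by library size POLR2B, POLR2G and POLR2J were called lower as well, where 40.9% of all genes were. POLR2B, part of the catalytic centre (chr4:57845108-57897334), was lower in RKO, from 400 and 385 CPM to 238 and 250 (log2 -0.68 ± 0.15, adjusted p = 0.00507). In H460 it read 135 and 138 against 101 and 93.2 CPM, 1.40-fold lower and under the fold minimum (log2 -0.84 and called under scaling by library size). POLR2D of the stalk (log2 -0.89 ± 0.10) and POLR2I (log2 -0.97 ± 0.11), which takes part in transcript cleavage, were called lower in H460. POLR2C (log2 -0.71 ± 0.15), the stalk subunit POLR2G (-0.69 ± 0.17) and POLR2I (-0.63 ± 0.18) were called lower in RKO. These calls were lost without hypoxia replicate 2, at -0.58, -0.56 and -0.53. That of POLR2I was also lost without normoxia replicate 1 (-0.57), in the joint fit (-0.57) and under scaling by library size (-0.55). POLR2C in H460 was at 0.28 ± 0.09, not called, and at -0.077 under scaling by library size. POLR2J, which pairs with POLR2C, was called in no line with TMM scaling.

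POLR2A, the largest subunit, whose tail repeats carry the phosphorylation marks of the transcription cycle, was called higher in RKO. Its RKO levels were 125 and 240 CPM in normoxia and 243 and 309 in hypoxia (log2 0.59 ± 0.26, adjusted p = 0.0931). The normoxia replicates differed by 0.94 on the log2 scale, more than for all but 84 of 12817 tested genes (0.655%). Without normoxia replicate 1 the value was 0.20 (adjusted p = 0.569), and without hypoxia replicate 2 it was 0.43 (adjusted p = 0.15), so the RKO rise rests on those libraries. In H460 POLR2A read 228 and 193 CPM against 282 and 264 (log2 0.38 ± 0.10, adjusted p = 0.00502, under the fold minimum, and 0.027 under scaling by library size), and in A549 the conditions overlapped. Per gene length the POLR2A to POLR2B ratio was 0.939 and 0.777 in H460 normoxia and 1.56 and 1.57 in hypoxia, and 0.174 and 0.348 against 0.566 and 0.689 in RKO.

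Of the 4 other Pol II genes, POLR2J2, POLR2J3 and POLR2J4 are related copies of POLR2J on chromosome 7. The counts of each are uncertain because reads may fit several copies. POLR2J4 has a deposited length of 6466 bases against 976 for POLR2J. POLR2J4 was called higher in RKO, from 5.27 and 6.67 CPM to 13.16 and 15.05 (log2 1.24 ± 0.24, adjusted p = 0.00259). POLR2M, whose product binds Pol II, rested on 54 to 143 counted reads per library. It was called higher in H460, from 1.77 and 1.70 CPM to 2.30 and 3.60 (log2 0.78 ± 0.26, adjusted p = 0.0191), and the call was lost without hypoxia replicate 2 (0.43, adjusted p = 0.255).

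The absence of calls in A549 depended on the fit and on 1 library. It also depended on a replicate block, whose counts are given in the last section because the replicate numbers were not taken as a pairing. Genes called lower numbered 2 by DESeq2 and 2 without the filter on low counts, where 1.09% of all genes were called lower. The replicates in hypoxia lay apart over the 36 genes. Their median log2 difference from the normoxia mean was -0.224 in replicate 1 and -0.396 in replicate 2. Of the 36 genes, 28 were lower in replicate 2. The medians and the count were not taken over all genes, so they have no background to be read against. Without hypoxia replicate 1, 9 genes were called lower (among them CD3EAP, POLR1A, POLR1B, POLR1C, POLR3B, POLR3G, POLR3K and TWISTNB) and POLR1D was called higher, against 5.34% and 7.7% of all genes under the same setting. POLR1A was then at -1.18 (adjusted p = 0.00106) and POLR3B at -1.28 (adjusted p = 0.0102), on a single hypoxia library that is assumed to vary like the normoxia pair. In the joint fit, which shares the spread of all 12 libraries, 6 genes were called lower in A549, against 2.82% of all genes, among them POLR1A, POLR1B, POLR1C, POLR3B and TWISTNB.

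The effect of hypoxia was compared between lines by the interaction term of the joint fit. It passed an adjusted p of 0.1 for 20 of the 36 genes, where 48.8% of all genes passed, so the share in these genes was close to the background. Of the pairs of lines, RKO and A549 differed for 7 genes (14.6% of all genes), RKO and H460 for 15 (37.6%) and A549 and H460 for 15 (36%). CD3EAP had the widest difference, with an effect 2.72 ± 0.34 log2 units lower in H460 than in A549 (adjusted p = 0.000153) and 2.65 ± 0.35 lower than in RKO (adjusted p = 0.000131). POLR3K followed, at 2.69 ± 0.37 relative to A549 and 2.20 ± 0.37 relative to RKO. UBTF and ZNRD1 differed in all 3 pairs. POLR3D and ZNRD1 differed the other way, with effects lower in RKO than in H460 by -1.49 ± 0.26 and -1.35 ± 0.22. For RRN3 (interaction adjusted p = 0.739), TWISTNB (0.473), POLR3G (0.466) and POLR1C (0.179) a difference between lines was not detected.

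**Figure D4:**
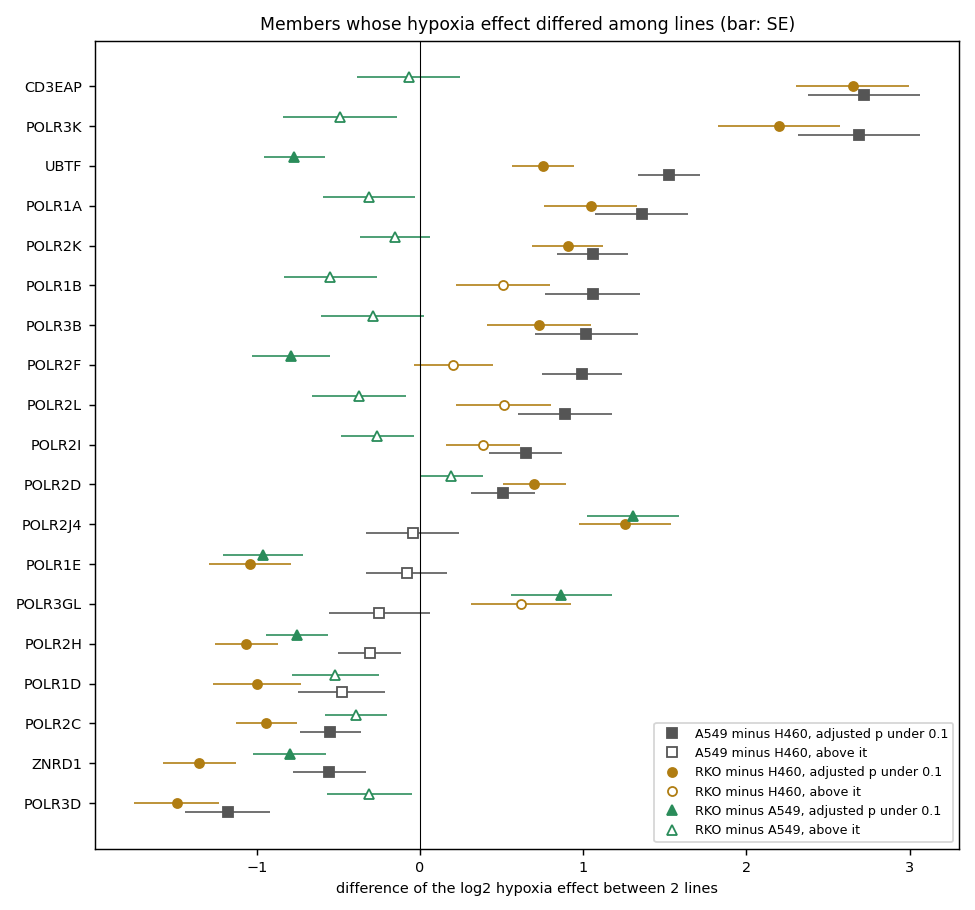
Difference of the log2 hypoxia effect between 2 lines (horizontal axis) for 19 of the 20 genes with an interaction adjusted p under 0.1, from the joint edgeR fit, with standard errors as bars. Filled symbols have an adjusted p under 0.1 for that pair of lines. CD3EAP and POLR3K lie farthest right for A549 minus H460, and POLR3D farthest left for RKO minus H460.

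In normoxia, the level per gene length was highest for the shared and the Pol II subunits. The shared subunits had a median of 71.6 RPKM in RKO, 35.8 in A549 and 32.3 in H460, and the Pol II subunits of 50.1, 45.5 and 35.2. Pol III subunits had medians of 18.6, 12.9 and 15.2 and Pol I subunits of 20.3, 10.8 and 14.5. Within Pol III, POLR3K was highest (51 RPKM in RKO, 32 in A549 and 38.8 in H460) and POLR3B lowest (4.25, 3.78 and 6.50) in every line. In H460 hypoxia POLR3D was highest at 24.1. Within Pol I, POLR1E was highest in RKO and A549, and CD3EAP fell to the lowest place in H460 hypoxia at 0.523 RPKM.

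Between the normoxic lines, RKO had 16 of the 36 genes higher than A549 (26% of all genes) and 6 lower (34.1%), and 15 higher than H460 (27.2%) and 5 lower (34.7%). A549 had 6 higher than H460 (26.9%) and 7 lower (25.2%). POLR2B was 2.40-fold higher in RKO than in A549 (adjusted p = 2.1e-06) and 2.42-fold higher than in H460 (adjusted p = 1.85e-06). POLR1B was 3.27-fold and 2.03-fold higher in RKO. POLR2A was 1.91-fold lower in RKO than in A549 (adjusted p = 0.00233), on replicates that differ as given above. POLR3G was 3.11-fold higher in RKO than in A549 and 2.10-fold lower in A549 than in H460 (adjusted p = 0.00419), while POLR3B was 1.56-fold lower in RKO and 1.75-fold lower in A549 than in H460. These contrasts share the same normoxia libraries with the hypoxia effects.

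Other genes of the 3 transcription systems were read from lists chosen by function. Their counts stand against 15.1% of all genes lower and 18.8% higher in RKO, and 27.3% lower and 24.6% higher in H460. In A549, 0 genes of these lists were called by edgeR. Of 5 Pol I initiation and termination factors, TAF1A, a subunit of the promoter selectivity complex, was lower in RKO (log2 -1.06 ± 0.23), and TAF1A, TAF1B and TAF1C were lower in H460 (-0.69 ± 0.11, -0.84 ± 0.13 and -0.91 ± 0.10), while TAF1D and TTF1 were called in no line. Of 17 Pol III factors, 5 were lower and 2 higher in RKO, and 3 lower and 1 higher in H460, where both shares (17.6% and 5.88%) were below those of all genes. SNAPC5 and SNAPC3 belong to the complex that directs transcription of small nuclear RNA genes, and SNAPC5 was lower (-1.06 ± 0.23 in RKO and -2.00 ± 0.16 in H460) where SNAPC3 was higher (0.85 ± 0.20 and 1.73 ± 0.09). SNAPC1, of the same complex, was higher in RKO (1.24 ± 0.20). CRCP, a further Pol III subunit outside the symbol rule, was at -0.52 ± 0.16 in RKO and -0.53 ± 0.10 in H460, and MAF1, the Pol III repressor, at -0.48 ± 0.17 and 0.28 ± 0.09, none of them called.

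Of 31 general Pol II factors, 6 were lower and 0 higher in RKO, and 6 lower and 2 higher in H460. The share lower, 19.4% in both lines, was near the 15.1% of all genes in RKO and below the 27.3% in H460. The TFIIH subunit GTF2H1 had the lowest value in RKO (-0.93 ± 0.18) and GTF2H3 in H460 (-1.33 ± 0.10), and GTF2F1 was the highest in H460 (0.70 ± 0.09). TBP, used by all 3 polymerases, was called in no line. Among pausing and elongation factors, 5 were lower and 1 higher of 22 tested in RKO, and 1 was lower and 5 higher of 23 in H460, where the share higher, 21.7%, was near the 24.6% of all genes. The elongation factor ELL2 rose in both, by 1.97 ± 0.19 in RKO and 1.97 ± 0.09 in H460, and read 0.80 ± 0.21 in A549 (adjusted p = 0.118). The histone chaperone subunits SSRP1 (-0.99 ± 0.16 in RKO) and SUPT16H (-1.28 ± 0.10 in H460) had the lowest values.

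Of 14 genes for polymerase assembly and import, 5 were lower in RKO and 4 in H460, with 0 higher. The H460 share, 28.6%, was close to the 27.3% of all genes. RUVBL1, an ATPase of the assembly chaperone, was the lowest in RKO (-1.49 ± 0.17), and the prefoldin subunit PFDN6 in H460 (-0.82 ± 0.11). Of 5 mitochondrial transcription genes, TFAM and TFB2M were lower in both RKO (-0.77 ± 0.16 and -1.39 ± 0.18) and H460 (-1.09 ± 0.10 and -0.66 ± 0.10), and TEFM was lower in H460 (-0.85 ± 0.14). TFB1M and the mitochondrial polymerase itself, POLRMT, were called in no line, with POLRMT at -0.46 ± 0.15 in RKO and 0.20 ± 0.09 in H460.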

How the data were processed

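TRI reagent was used to extract total RNA, and its poly(A)+ fraction was made into strand-specific libraries, which were read from a single end. Per the labels and the methods of the study, the authors trimmed reads by quality, aligned them with TopHat2 2.0.13 and Bowtie2 2.2.3.0 to GRCh37/hg19, removed low-quality alignments, marked duplicates and counted exon reads by strand with HTSeq 0.6.1. The deposited counts per gene entered every test. The authors also deposited RPKM values, which equal the count divided by gene length and by the summed counts, up to a constant factor, to a relative difference of 4.98e-12. The deposited gene length and coordinates were used as given, and 0 value columns were left unused.

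Each line was fitted on its 4 libraries with edgeR 4.0.16 in R 4.3.3 (TMM factors, quasi-likelihood F test) over all genes above 0.5 CPM in at least 2 libraries. Calls needed a Benjamini-Hochberg adjusted p under 0.1 over all genes tested and a fold change over 1.5. Differences between lines, normoxic contrasts and mean effects came from a joint fit of the 12 libraries in 6 groups, and interaction counts used the adjusted p alone. CPM values are TMM-scaled. Alternatives were DESeq2 1.42.0 (the authors called genes with an earlier DESeq2 version at the same thresholds), other scalings, no filter, no fold minimum, a replicate block, the joint fit and leaving out each library. The 36 genes and the other lists were chosen with earlier results of these data known. All 36 genes could be named. Of the other lists, genes were named that had the highest or lowest called value of their list in a line, along with CRCP, TBP, MAF1, POLRMT, the hypoxia targets and the lists of 5 genes. Class medians, ratios and motif matches were not tested. The values of 1 of the 36 genes are not reported here, though it is counted in the totals and class medians.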

Additional observations from a re-analysis of the deposited data

Results flagged for a closer look

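In the joint edgeR fit, 20 of the 36 genes passed the interaction test of line and oxygen (adjusted p under 0.1), and the widest tested difference is given here for 19 of them on the log2 scale. Relative to A549, the effect in H460 was lower, so that A549 minus H460 was positive, for CD3EAP (2.72 ± 0.34), POLR3K (2.69 ± 0.37), UBTF (1.52 ± 0.19), POLR1A (1.36 ± 0.29), POLR1B (1.06 ± 0.29), POLR2K (1.06 ± 0.22), POLR3B (1.02 ± 0.32), POLR2F (0.99 ± 0.24), POLR2L (0.89 ± 0.29) and POLR2I (0.65 ± 0.22).

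For RKO minus H460 the difference was negative, with the lower effect in RKO, for POLR3D (-1.49 ± 0.26), ZNRD1 (-1.35 ± 0.22), POLR2H (-1.07 ± 0.19), POLR1E (-1.04 ± 0.25), POLR1D (-0.9997 ± 0.27) and POLR2C (-0.94 ± 0.19), and positive for POLR2D (0.70 ± 0.19). For RKO minus A549 it was positive for POLR2J4 (1.30 ± 0.28) and POLR3GL (0.87 ± 0.31). The lines also differed in medium for H460 and in the spread of their replicates, whose part in these differences was not tested.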

How the results depend on the processing

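Of 22 genes called in RKO, 16 were called under every alternative, and of 23 in H460, 21. The exceptions were POLR2A, POLR2C, POLR2G, POLR2I, POLR3F and RRN3 in RKO and POLR2H and POLR2M in H460. In A549, 26 of the 36 genes were called under no alternative. Genes called lower in A549 numbered 0 in the reported fit, 2 by DESeq2, 2 without the filter, 6 in the joint fit and 7 with the replicate block, and 0 to 9 when a library was left out (higher: 0 to 1). Under the replicate block 5.07% of all genes were called lower in A549, the background for those 7. POLR1A was then at a log2 value of -0.81 (adjusted p = 7.15e-05). None of the 36 genes was called higher in A549 under the block, against 8.34% of all genes. The replicate block changed no call in RKO or H460. Replicates with the same number shared deviations across genes (correlations 0.356 in RKO, 0.371 in A549 and 0.145 in H460), but with 2 pairs per line the numbers were not taken as a pairing.

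Scaling by library size alone gave RKO medians of -0.55 for Pol II, -0.46 for Pol III and -0.46 for shared subunits, and H460 medians of -1.59, -0.83, -1.08 and -1.36 for Pol I, Pol II, Pol III and shared subunits. It left 2 genes higher in H460. With TMM scaling and no fold minimum, 8 genes were called higher in H460. No share of all genes is given for counts without a fold minimum, so they have no background to be read against. Without a fold minimum, 22 genes differed between normoxic A549 and H460, and the mean effect was lower for 27 and higher for 4 genes. With the fold minimum kept, leaving out 1 library gave a higher mean effect for 0 to 2 genes.

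With each library left out in turn, A549 medians ranged from -0.90 to -0.39 (Pol I), -0.62 to -0.33 (Pol III) and -0.44 to -0.069 (shared). H460 medians ranged from -1.32 to -1.20 (Pol I), -0.51 to -0.41 (Pol II), -0.79 to -0.70 (Pol III) and -1.01 to -0.93 (shared), and RKO medians from -0.70 to -0.53 (Pol II), -0.65 to -0.53 (Pol III) and -0.59 to -0.42 (shared). The change of the log2 POLR3G to POLR3GL ratio in A549 ranged from -1.47 to 0.051. The cause was not tested for any of these shifts. POLR2M and POLR2J2 rested on few reads, and 2 replicates per group limit the precision of every fold change.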
